A study of Homo sapiens with 12 samples.

Results

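The genes described here are 38 interferon-stimulated and antigen presentation genes, chosen by name from the 54553 genes in the deposited tables of an RNA sequencing study of Caco-2 cells, an epithelial line from a human colorectal tumour often used as a model of absorptive gut cells. The list was given by function, with earlier results of these data known. Of the 38, 32 passed the filter on low counts and were tested, and 6 did not. The study held 4 groups of 3 libraries. Rich vehicle cells were kept in Eagle's minimum essential medium with 1 g/L glucose, 2 mM glutamine and 20% fetal bovine serum. Rich bafilomycin cells were in the same medium with 100 nM bafilomycin A1, which blocks the V-ATPase and so the acidification of lysosomes, for 48 h. Depleted vehicle cells were kept for 48 h in Dulbecco's modified Eagle medium with 0.1 g/L glucose, 0.2 mM glutamine and 1% serum. Depleted bafilomycin cells were in this medium with 100 nM bafilomycin A1 for 48 h. The line was labelled wild type in every group, and all media contained pyruvate, non-essential amino acids and penicillin with streptomycin. The base medium thus differed along with glucose, glutamine and serum, so these parts of depletion cannot be told apart. What the vehicle was is not given in the sources used here. No agent that supplies interferon was listed for any group.

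Type I and type III interferons bind cell surface receptors whose kinases phosphorylate STAT proteins. A complex that holds STAT2 and IRF9 then binds the interferon-stimulated response element (ISRE) upstream of many target genes, whereas interferon gamma acts on gamma-activated sites (GAS). The targets include RNA sensors, antiviral effectors and the machinery that cuts proteins into peptides and presents them on HLA class I, a surface complex whose light chain is B2M. In gut epithelium this response is known as a barrier to enteric viruses.

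Some of these genes hold the ISRE core in the stretch searched and others do not. Windows upstream of the start site are shown for members whose levels are described further on. RefSeq promoters (GRCh38.p14) were matched for 31 of the 38 members. The ISRE core GAAANNGAAA, searched on both strands in the 250 bases before the start site, was present in 17 of the 31 (54.8%), and in 3.02% of 35116 RefSeq promoters. The GAS core TTCNNNGAA was present in 10 of the 31 (32.3%), and in 6.57% of all promoters. In 3 members, MX1, BST2 and IFI27, an ISRE match and a GAS match overlapped. Each line below gives 120 bases 5′ to 3′ on the gene's strand, with ISRE core matches in capitals on whichever strand they lie. The windows of UBE2L6 and SAMHD1 are shown as examples with no match in the 250 bases. STAT2, IRF9, IRF1, OAS1, TAP1, HLA-B and HLA-C were among the other members with none. Of members called higher in at least 1 pairwise comparison, IFIH1, PARP9, PARP14, IFIT1, IFIT3 and ISG20 had a match. STAT2, IRF1, DTX3L and OAS1 had none, and IRF7, IFIT2 and HLA-E had no promoter to search. Of those called lower in at least 1, IFI6 had 3 matches, and IFIT3, OAS3, BST2 and B2M had 2 each. UBE2L6, OAS1, SAMHD1, HLA-B and HLA-C had 0. The windows of UBE2L6, IFIT3, PARP9 and ISG20 lie inside the annotated span of the gene, so bases before its outer end were not searched. A match is a string of letters only and does not show that a factor binds there.
IFIT1, chr10:89392503-89392622, plus strand: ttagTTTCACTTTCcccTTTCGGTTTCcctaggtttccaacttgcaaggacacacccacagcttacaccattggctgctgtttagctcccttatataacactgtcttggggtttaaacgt
IFIT3, chr10:89332409-89332528, plus strand: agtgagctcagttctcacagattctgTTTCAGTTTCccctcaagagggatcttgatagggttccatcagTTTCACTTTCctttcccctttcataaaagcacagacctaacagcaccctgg
PARP9, chr3:122564301-122564420, minus strand: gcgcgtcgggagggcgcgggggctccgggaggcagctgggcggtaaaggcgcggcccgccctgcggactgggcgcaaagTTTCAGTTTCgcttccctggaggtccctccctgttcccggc
ISG20, chr15:88638896-88639015, plus strand: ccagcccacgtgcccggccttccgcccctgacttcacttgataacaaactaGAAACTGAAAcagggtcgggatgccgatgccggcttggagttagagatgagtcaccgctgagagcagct
B2M, chr15:44711283-44711402, plus strand: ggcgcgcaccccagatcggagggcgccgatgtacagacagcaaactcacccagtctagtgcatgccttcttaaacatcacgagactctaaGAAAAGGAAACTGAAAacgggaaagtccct
BST2, chr19:17405731-17405850, minus strand: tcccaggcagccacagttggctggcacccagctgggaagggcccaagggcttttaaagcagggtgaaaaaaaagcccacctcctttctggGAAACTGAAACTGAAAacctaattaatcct
UBE2L6, chr11:57567673-57567792, minus strand: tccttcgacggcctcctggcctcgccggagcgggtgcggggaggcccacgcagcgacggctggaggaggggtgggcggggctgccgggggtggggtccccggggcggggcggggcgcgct
SAMHD1, chr20:36951709-36951828, minus strand: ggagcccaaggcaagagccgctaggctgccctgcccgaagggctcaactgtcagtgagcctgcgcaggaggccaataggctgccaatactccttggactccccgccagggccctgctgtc

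In IFIT1 and IFIT3 the capitals mark 2 matches each, on the opposite strand, and the match nearer to the start site began 103 bases before it in IFIT1 and 51 bases before it in IFIT3. The match of ISG20 lay 69 bases before the start site. PARP9 and DTX3L are transcribed away from each other from start sites 38 bases apart on chromosome 3, and the match of PARP9 began 41 bases before its own start. In B2M and BST2 the runs in capitals are a pair of overlapping matches. Other members with a match were IFIH1, ISG15, PARP14, IFIT5, OAS3, MX1, SAMD9, IFI6, IFI27, IFI44 and IFI44L.

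Libraries held from 12969814 to 51649213 reads assigned to genes. Rich vehicle replicate 1 was the shallowest, and the other 11 held at least 33859998 reads. In earlier results of these data rich vehicle replicate 1 and rich bafilomycin replicate 3 stood apart from their groups, so each count of members was also computed without both. The lowest rank correlation with a library of the same group did not single them out. It was 0.966 for rich vehicle replicates 1 and 2, and 0.985 for all 3 rich bafilomycin replicates. Ribosomal RNA made up 1.35% of reads in rich vehicle replicate 1 and 4.51% to 9.10% in the others. The labels do not tell whether replicates were separate cultures, so the p-values rest on a spread between libraries that may be technical only. The 10 colon epithelial markers summed to between 7239 and 10208 CPM (TMM-scaled counts relative to library size) in rich vehicle and to between 3063 and 3557 CPM in depleted bafilomycin. KRT8 reached 5490 CPM, whereas KRT20 did not exceed 0.501 CPM and FABP1 3.56 CPM in any library. The 12 leukocyte markers summed to between 8.82 and 20.5 CPM over all libraries. Among them MS4A1 and FCGR3A had no read in any library, and the common leukocyte antigen PTPRC did not exceed 0.258 CPM. CD14, NCAM1 and CD68 passed the filter and reached 14.7, 6.48 and 4.38 CPM. The 6 fibroblast markers summed to between 22.8 and 55.9 CPM over all libraries, with COL1A1 up to 32.4 CPM. The 4 endothelial markers summed to between 3.16 and 14.1 CPM, and the 7 markers of secretory gut epithelium to at most 0.995 CPM.

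Levels of the members spanned a wide range, which can be compared between genes only per length, in TPM, the length-scaled unit of the deposited tables. In rich vehicle the class I light chain B2M had a mean of 527 TPM and HLA-C 158 TPM. They were followed by the tetherin gene BST2 at 45.8, the dNTP hydrolase gene SAMHD1 at 37.0 and HLA-E at 32.6 TPM. Most of the tested members lay lower: STAT2 at 17.0, OAS3 at 12.8, IRF7 at 6.37, IFIT3 at 1.03 and IFIT1 at 0.093 TPM. Several classic interferon markers were close to the limit of these libraries. IFI44 had 0 reads in all 12 libraries, where 3 reads, the limit that a count of 0 allows, correspond to between 0.0552 and 0.223 CPM by library. IFI44L had 1 read in all, OAS2 13, the GTPase gene MX1 19, IFI27 65 and the RNA helicase gene DHX58 76 reads, and these 6 were not tested. OAS2 read 9 of its 13 in rich bafilomycin replicate 3. This limit covers counting error only.

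**Figure D1:**
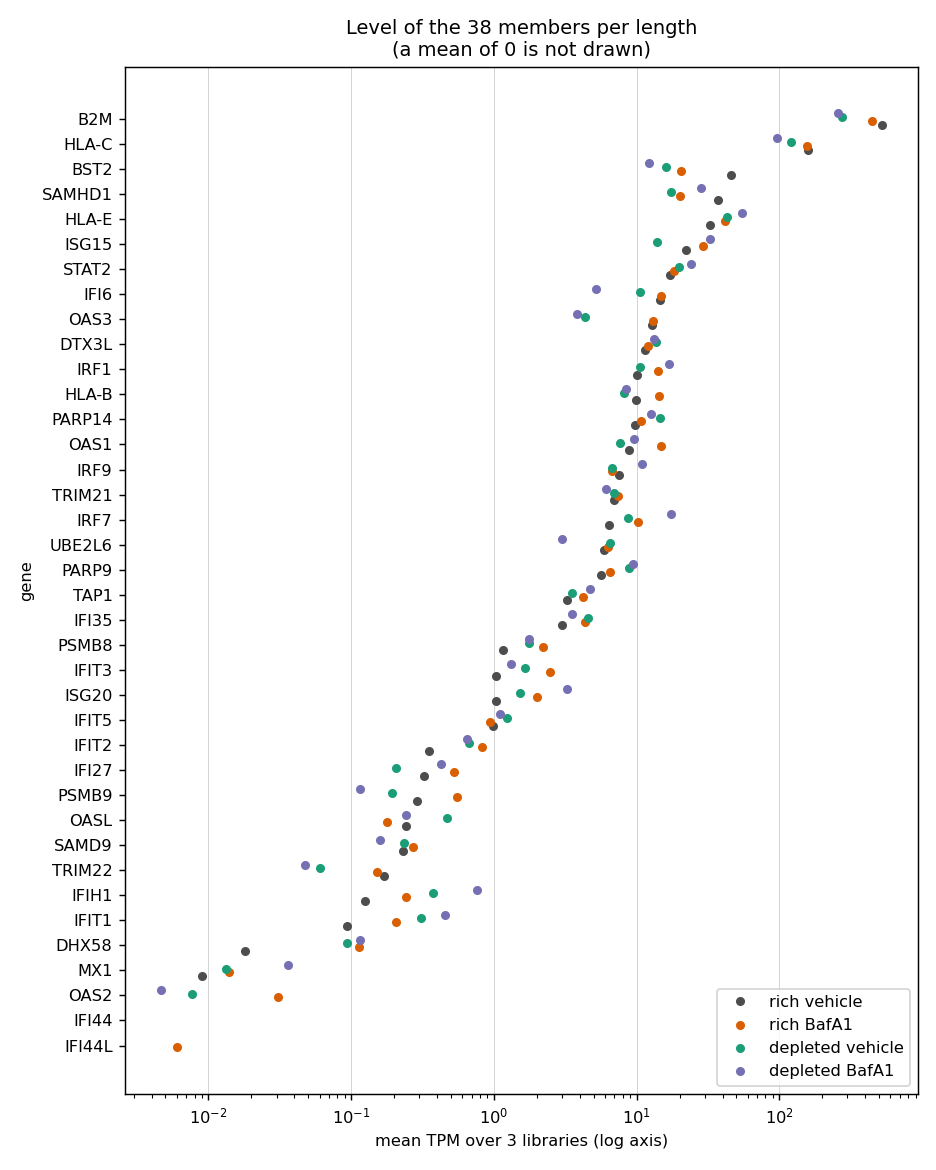
Mean TPM over 3 libraries (x axis, log scale) of each of the 38 members (y axis, ordered by the rich vehicle mean), with 1 colour per group. B2M at 527 TPM and HLA-C at 158 TPM in rich vehicle lie above all other members, while MX1, OAS2 and IFI44L lie at the far left and IFI44, with no reads, has no point.

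The 12 interferon ligand genes searched gave little signal. Only IFNE passed the filter, with at most 0.467 CPM in a library, and it was not called in any comparison. IFNB1 had 3 reads and IFNL1 13 reads over the 12 libraries, and IFNA1, IFNA2, IFNA13, IFNW1, IFNK and IFNL2 had none.

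Bafilomycin A1 in rich medium raised 8 of the 38 members and lowered 2. In edgeR's quasi-likelihood test with Benjamini-Hochberg adjustment over 18047 genes, at an adjusted p under 0.05, 6.15% of all genes tested were called higher and 4.78% lower. Members that rose were STAT2, IRF7, IRF1, IFIT2, IFIT3, OAS1, ISG20 and HLA-E, and those that fell were SAMHD1 and BST2. The median log2 fold change of the 32 tested members was 0.51, beside 0.02 for all genes tested. In such bulk libraries fewer expressing cells and less RNA per cell cannot be told apart. Without rich vehicle replicate 1 and rich bafilomycin replicate 3, 7 members were called higher, when 3.52% of all genes were, and 0 lower, when 1.93% were. In a fit of the 6 libraries compared alone, 1.75% of all genes were called higher and 1.21% lower, and of the members only the rises of IRF7 and IFIT3 passed. STAT2, IRF1, IFIT2, OAS1, ISG20, HLA-E, SAMHD1 and BST2 then had edgeR adjusted p-values from 0.0629 to 0.189.

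In depleted medium the same agent raised 2 members, IRF7 and ISG20, and lowered 2, UBE2L6 and BST2. Of all genes tested, 5.5% were called higher and 5.91% lower. In this fit, which held no replicate block, the members' share lay near the background in both directions. For lower calls it lay above the background in the alternatives given next. The median log2 fold change of the members was -0.32, beside -0.03 for all genes. Replicate numbers paired the libraries in this comparison. With the replicate number as a block, 3 members were called higher (7.93% of all genes) and 6 lower (8.77%): ISG15 joined those called higher, and PARP14, OAS3, IFI6 and HLA-C those called lower. Without the pair of libraries that stood apart, 4 members were called higher (9.36% of all genes) and 6 lower (9.22%). In a fit of the 6 libraries compared alone, 4 of 30 members tested were higher (12.1% of all genes) and 7 lower (12.8%).

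Depletion under vehicle raised 12 members and lowered 4, when 15.5% of all genes tested were called higher and 15.4% lower. STAT2, IRF7, IRF1, IFIH1, PARP9, DTX3L, PARP14, IFIT1, IFIT2, IFIT3, ISG20 and HLA-E rose, and OAS3, SAMHD1, BST2 and B2M fell. The median of the tested members was 0.51 on the log2 scale, beside 0.04 for all genes. In a fit of the 6 libraries compared alone, 6 members were called higher (10.8% of all genes) and 3 lower (11.4%). The calls of IRF1, IFIH1, DTX3L, IFIT1, IFIT2, ISG20 and B2M ended there, at edgeR adjusted p-values from 0.0524 to 0.125. This comparison and that of bafilomycin A1 in rich medium share the rich vehicle libraries, so members in common between them are not separate evidence.

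Under bafilomycin A1, depletion raised 2 members, IRF7 and IFIH1, and lowered 9: UBE2L6, IFIT3, OAS1, OAS3, BST2, IFI6, HLA-B, HLA-C and B2M. Of all genes tested, 10.5% were called higher and 13.6% lower. The median log2 fold change of the members was -0.27, beside 0.01 for all genes. The length minus the effective length in the deposited tables had a median over genes of 179 to 203 bases in depleted bafilomycin and 210 to 263 bases in the other libraries. Across all genes, length and log2 fold change had a Spearman rho of 0.117 in this comparison, and across the 32 members 0.32. For depletion under vehicle these were 0.03 and 0.38. Genes are not independent replicates, and the part of length in the members' values was not tested. The epithelial markers also fell here, 8 of 10 of them.

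The interaction, which subtracts the response to bafilomycin A1 in rich medium from that in depleted medium, was called higher for SAMHD1 and lower for UBE2L6, PARP14 and IFIT3. Of all genes tested, 2.35% were called higher and 3.83% lower. The members' median was -0.81, beside -0.05 for all genes. Without the libraries that stood apart, 0 members were called higher (1.55% of all genes) and 6 lower (2.73%), with IFIT2, OAS1 and OAS3 added and SAMHD1 at an adjusted p of 0.051 by edgeR. With no low-count filter 1 was higher (1.7% of all genes) and 8 lower (3.87%), and with DESeq2 1 was higher (4.84%) and 6 lower (6.63%).

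**Figure D2:**
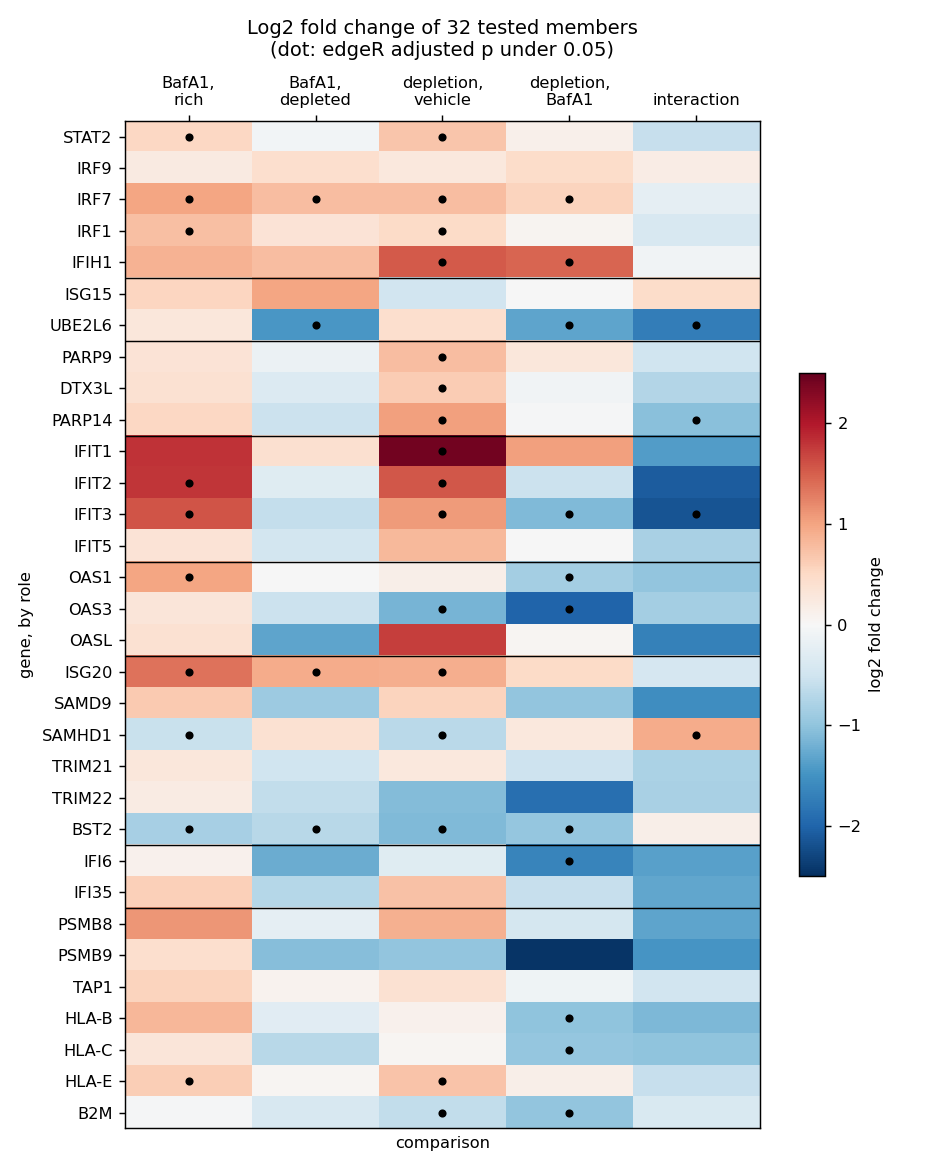
Log2 fold change (colour) of the 32 tested members (y axis, grouped by role) in the 5 comparisons (x axis), with a dot where edgeR's adjusted p was under 0.05. The column of depletion under vehicle holds 12 dots on higher values, and that of depletion under bafilomycin A1 holds 9 dots on lower values.

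Among the signalling and sensing genes, IRF7, the factor that drives interferon alpha genes, was called in 4 of the 5 comparisons, each time higher. IRF7 read 7.52, 8.30 and 10.03 CPM in rich vehicle and 15.6, 17.1 and 19.0 CPM in rich bafilomycin. In depleted medium it read 13.3, 13.7 and 17.4 CPM with vehicle and 25.2, 21.7 and 28.8 CPM with bafilomycin A1. Neither bafilomycin comparison showed overlap between groups. The log2 fold changes for bafilomycin A1 were 0.99 ± 0.19 (SE) in rich medium (edgeR adjusted p = 0.00451) and 0.77 ± 0.18 in depleted medium (edgeR adjusted p = 0.0134). The response did not differ detectably between media, with an interaction of -0.22 ± 0.26 (edgeR adjusted p = 0.663). Depletion raised IRF7 by 0.77 on the log2 scale under vehicle (edgeR adjusted p = 0.00562) and by 0.55 under bafilomycin A1 (edgeR adjusted p = 0.0375). The last call ended on leaving out any 1 of 6 libraries (edgeR adjusted p from 0.0512 to 0.154), among them depleted bafilomycin replicates 1 and 3 and rich bafilomycin replicates 1 and 2. That in depleted medium ended without depleted bafilomycin replicate 3 or depleted vehicle replicate 1 or 2.

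STAT2, which with IRF9 is part of the complex that binds the ISRE, read 49.3, 57.2 and 40.6 CPM in rich vehicle. Its values were 71.6, 70.4 and 67.2 CPM in rich bafilomycin, 83.9, 84.7 and 70.9 CPM in depleted vehicle, and 75.4, 82.3 and 69.9 CPM in depleted bafilomycin. Rich vehicle was thus the low group in CPM, without overlap with the others. In TPM it overlapped with all of them, at 22.3, 21.0 and 7.76 TPM beside 19.5, 19.4 and 15.7 TPM in rich bafilomycin. Depletion under vehicle raised STAT2 by 0.70 ± 0.15 (SE) on the log2 scale (edgeR adjusted p = 0.00256). Its rise with bafilomycin A1 in rich medium (0.51 ± 0.15, edgeR adjusted p = 0.04) ended on leaving out any 1 of 11 libraries, at edgeR adjusted p-values up to 0.11. Only rich vehicle replicate 2 could be left out without losing it.

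IRF1, a factor for class I and other interferon gamma targets, read 13.6, 15.3 and 14.7 CPM in rich vehicle and 24.4, 27.97 and 20.9 CPM in rich bafilomycin. In depleted medium it read 20.3, 18.8 and 21.5 CPM with vehicle and 23.8, 24.2 and 28.9 CPM with bafilomycin A1. The increase with bafilomycin A1 was 0.75 ± 0.16 (SE) in rich medium (edgeR adjusted p = 0.00964), and the value in depleted medium was 0.35 ± 0.16 (edgeR adjusted p = 0.186). Depletion under vehicle gave 0.47 ± 0.16 (edgeR adjusted p = 0.0381), a call that ended on leaving out any 1 of 7 libraries. In TPM the means of IRF1 were 10.1 in rich vehicle and 10.6 in depleted vehicle.

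IFIH1, which encodes the double-stranded RNA sensor MDA5, was low: 0.149 to 0.733 CPM in rich vehicle and 0.615 to 1.06 CPM in rich bafilomycin. It read 0.642 to 1.84 CPM in depleted vehicle and 1.54 to 2.62 CPM in depleted bafilomycin. Depletion raised IFIH1 by 1.53 ± 0.54 (SE) under vehicle (edgeR adjusted p = 0.0421) and by 1.45 ± 0.51 under bafilomycin A1 (edgeR adjusted p = 0.0492). The first call ended on leaving out any 1 of 9 libraries and the second on any 1 of 6. Without rich vehicle replicate 3 the first value was 2.34. IRF9, the DNA-binding part of the complex, was not called, with 6.29 to 13.5 CPM over all libraries.

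In the ISG15 conjugation pair, the ubiquitin-like modifier ISG15 and its conjugating enzyme UBE2L6 took different courses under bafilomycin A1. UBE2L6 read 4.32, 3.74 and 5.87 CPM in rich vehicle and 6.25, 6.52 and 4.30 CPM in rich bafilomycin, which overlapped. In depleted medium it read 6.83, 5.58 and 6.27 CPM with vehicle and 2.76, 2.65 and 1.40 CPM with bafilomycin A1. Every depleted bafilomycin library lay below every other library. The fall in depleted medium was -1.45 ± 0.30 (SE) on the log2 scale (edgeR adjusted p = 0.00615), and no single library ended it. The interaction was -1.74 ± 0.41 (edgeR adjusted p = 0.0255), and it ended on leaving out any 1 of 6 libraries, at edgeR adjusted p-values up to 0.076.

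ISG15 read 4.61, 5.54 and 13.99 CPM in rich vehicle and 13.1, 12.05 and 10.2 CPM in rich bafilomycin. It read 5.55, 5.72 and 6.25 CPM in depleted vehicle and 9.11, 11.9 and 13.9 CPM in depleted bafilomycin, groups that did not overlap. The log2 fold change for bafilomycin A1 in depleted medium was 0.99 ± 0.33 (SE), with an edgeR adjusted p of 0.062. With the replicate block it was 0.97 and the edgeR adjusted p was 0.0313. Rich vehicle replicate 3 stood far above the other 2 of its group.

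The 3 genes of the PARP9-DTX3L group were all called higher on depletion under vehicle. In TPM, rich and depleted vehicle overlapped for each of them. PARP14 had 16.0, 9.58 and 3.85 TPM in rich vehicle and 19.1, 12.7 and 12.2 TPM in depleted vehicle. PARP9, an ADP-ribosyltransferase family member, and DTX3L, its ubiquitin ligase partner, are neighbours on chromosome 3, as is PARP14, a mono-ADP-ribosyltransferase. PARP14 read 71.2, 49.6 and 35.6 CPM in rich vehicle and 124, 101 and 92.0 CPM in depleted vehicle. Its values were 76.5, 71.8 and 73.2 CPM in rich bafilomycin and 83.5, 73.9 and 60.3 CPM in depleted bafilomycin. Depletion gave a log2 fold change of 1.03 ± 0.21 (SE) under vehicle (edgeR adjusted p = 0.00219) and of -0.03 ± 0.21 under bafilomycin A1 (edgeR adjusted p = 0.947).

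For bafilomycin A1, PARP14 gave 0.51 ± 0.21 (SE) in rich and -0.54 ± 0.21 in depleted medium, neither of them called (edgeR adjusted p = 0.136 and 0.111). The interaction of -1.05 ± 0.30 was called at an edgeR adjusted p of 0.0494. It ended on leaving out any 1 library except rich vehicle replicate 1, at edgeR adjusted p-values up to 0.135, and with DESeq2 size factors (edgeR adjusted p = 0.0592).

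PARP9 read 22.0, 17.96 and 15.3 CPM in rich vehicle and 36.6, 27.7 and 30.0 CPM in depleted vehicle. With bafilomycin A1 it read 22.0, 22.8 and 25.1 CPM in rich and 31.1, 29.01 and 24.9 CPM in depleted medium. The rise on depletion under vehicle was 0.78 ± 0.18 (SE) on the log2 scale (edgeR adjusted p = 0.00383). DTX3L read 57.0, 49.4 and 33.8 CPM in rich vehicle and 82.8, 61.3 and 74.1 CPM in depleted vehicle. It read 61.9, 63.0 and 57.6 CPM in rich bafilomycin and 61.6, 56.6 and 54.3 CPM in depleted bafilomycin. Its rise was 0.64 ± 0.18 (edgeR adjusted p = 0.0133), and it ended without depleted vehicle replicate 1 (edgeR adjusted p = 0.0694). The annotated span of PARP9 reaches past the start site given above, so PARP9 and DTX3L overlap on opposite strands. The libraries were stranded, but no source used here gives the strand setting of the counting. Reads of the shared stretch may thus be counted for either gene.

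**Figure D3:**
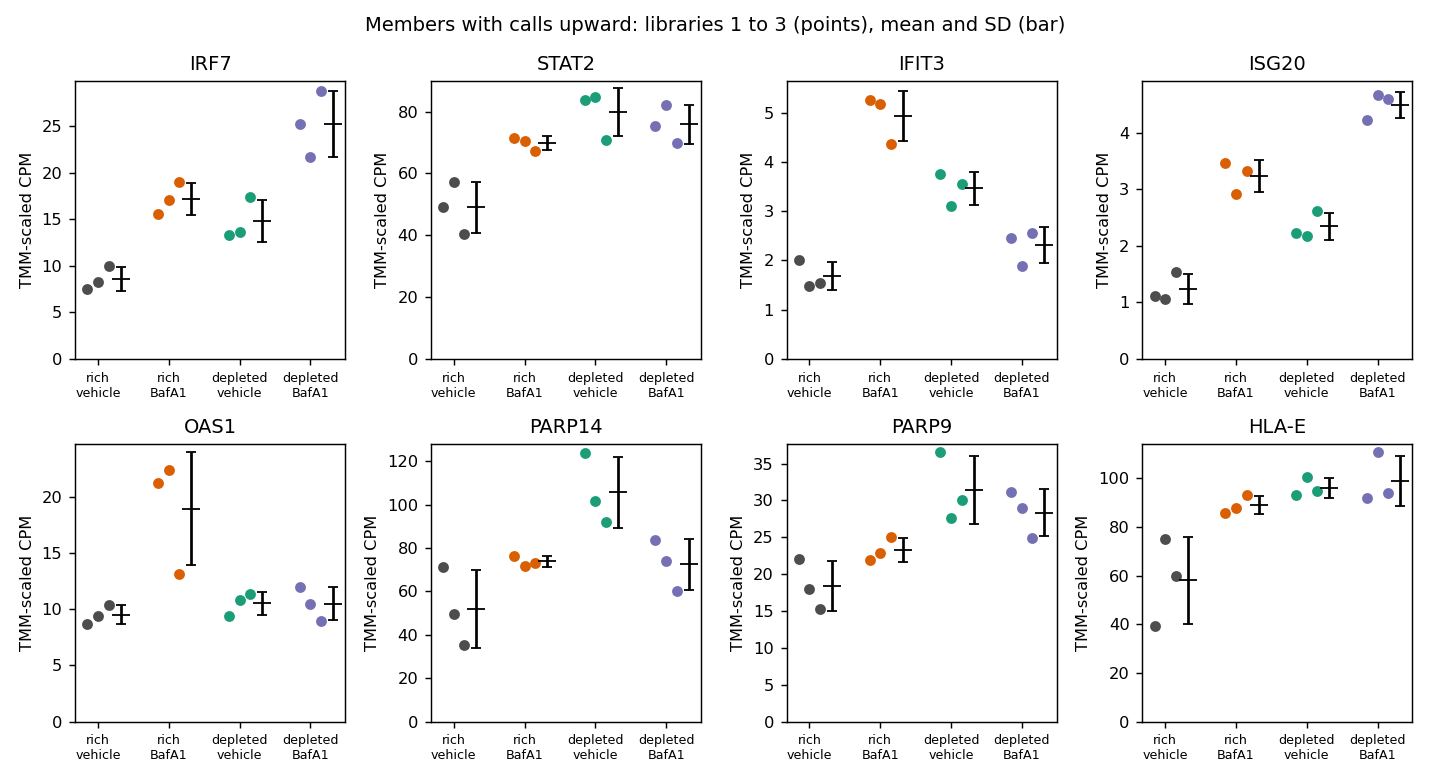
TMM-scaled CPM (y axis, from 0) of 8 members with calls upward, for libraries 1 to 3 of each group (points, x axis) with the mean and SD (bar). IRF7 and ISG20 were highest in depleted bafilomycin, IFIT3 and OAS1 in rich bafilomycin, and PARP14 in depleted vehicle.

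The IFIT genes encode proteins that bind viral RNA ends, and they lie side by side on chromosome 10. IFIT3 read 2.01, 1.49 and 1.55 CPM in rich vehicle and 5.27, 5.18 and 4.36 CPM in rich bafilomycin. In depleted medium it read 3.76, 3.10 and 3.54 CPM with vehicle and 2.47, 1.89 and 2.56 CPM with bafilomycin A1. The order of the 4 groups was rich vehicle, depleted bafilomycin, depleted vehicle and rich bafilomycin, with overlap only between the lowest pair.

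Bafilomycin A1 raised IFIT3 in rich medium by 1.57 ± 0.27 (SE) on the log2 scale (edgeR adjusted p = 0.00279). In depleted medium the value was -0.59 ± 0.26 (edgeR adjusted p = 0.164). The interaction of -2.16 ± 0.38 was called (edgeR adjusted p = 0.00617), and no single library ended it. Depletion raised IFIT3 under vehicle by 1.06 ± 0.27 (edgeR adjusted p = 0.00778), and under bafilomycin A1 the change was -1.10 ± 0.26 (edgeR adjusted p = 0.00699).

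IFIT2 read 1.49, 0.424 and 0.393 CPM in rich vehicle and 2.35, 2.81 and 2.02 CPM in rich bafilomycin. In depleted medium IFIT2 read 2.15, 1.45 and 2.49 CPM with vehicle and 1.53, 1.51 and 1.91 CPM with bafilomycin A1. Its log2 fold change was 1.78 ± 0.47 (SE) for bafilomycin A1 in rich medium (edgeR adjusted p = 0.0248) and 1.55 ± 0.47 for depletion under vehicle (edgeR adjusted p = 0.0209). Each of these calls ended on leaving out any 1 of 4 libraries, among them rich vehicle replicates 2 and 3. Without rich vehicle replicate 1 the values were 2.54 and 2.30. The interaction was -2.08 ± 0.63, with an edgeR adjusted p of 0.065, and without the libraries that stood apart it was -2.95 with an edgeR adjusted p of 0.0109.

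IFIT1 rested on few reads, with 0.131 to 0.521 CPM in rich vehicle and 0.475 to 1.60 CPM in depleted vehicle, which overlapped. Its rise on depletion under vehicle, 2.41 ± 0.70 (SE), had an edgeR adjusted p of 0.0168 and ended on leaving out any 1 of 4 libraries. Without rich vehicle replicate 1 it was 3.13. IFIT5 was not called, with 1.44 to 5.14 CPM over all libraries. LIPA, which encodes lysosomal acid lipase, overlaps IFIT1, IFIT2 and IFIT3 on the opposite strand in GENCODE 29. LIPA had a mean of 80.5 CPM in rich vehicle, 113 in rich bafilomycin, 84.9 in depleted vehicle and 147 CPM in depleted bafilomycin. It was called higher with bafilomycin A1 in depleted medium (log2 fold change 0.79, edgeR adjusted p = 0.0234), where none of IFIT1, IFIT2 and IFIT3 was called. With bafilomycin A1 in rich medium, where IFIT2 and IFIT3 rose, LIPA gave 0.49 and was not called (edgeR adjusted p = 0.142). LIPA was not called on depletion under vehicle either (0.08, edgeR adjusted p = 0.812). The part of LIPA reads in the IFIT values was not tested.

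The OAS genes encode enzymes that make 2-5A, the activator of RNase L. OAS1 read 8.71, 9.42 and 10.4 CPM in rich vehicle and 21.2, 22.4 and 13.2 CPM in rich bafilomycin, where replicate 3 lay below the others. It read 9.37, 10.8 and 11.4 CPM in depleted vehicle and 11.98, 10.5 and 8.999 CPM in depleted bafilomycin. Rich bafilomycin was thus the high group, and the other 3 overlapped. The rise in rich medium was 0.99 ± 0.21 (SE) on the log2 scale (edgeR adjusted p = 0.00923). No single library ended it, but the fit of the 6 libraries compared alone did (edgeR adjusted p = 0.0629). Depletion under bafilomycin A1 lowered OAS1 (-0.85 ± 0.21, edgeR adjusted p = 0.00907), a call that ended without rich bafilomycin replicate 2 (edgeR adjusted p = 0.0631).

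OAS3 was lower in depleted medium under both treatments. It read 55.6, 74.0 and 50.1 CPM in rich vehicle and 83.4, 96.3 and 42.1 CPM in rich bafilomycin. In depleted medium its values were 26.0, 28.9 and 25.1 CPM with vehicle and 20.2, 20.2 and 14.6 CPM with bafilomycin A1. All 6 depleted libraries lay below all 6 rich ones. Depletion lowered OAS3 under vehicle (-1.17 ± 0.25, SE, edgeR adjusted p = 0.00284) and under bafilomycin A1 (-2.01 ± 0.26, edgeR adjusted p = 0.000103). The interaction of -0.84 ± 0.35 was not called (edgeR adjusted p = 0.169). OAS1 and OAS3 are neighbours on chromosome 12, with start sites 31512 bases apart.

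OASL, a family member without this enzyme activity, read 1.04, 0.212 and 0.105 CPM in rich vehicle and 0.160, 0.246 and 1.12 CPM in rich bafilomycin. In depleted medium it read 1.48, 1.12 and 1.27 CPM with vehicle and 0.644, 0.592 and 0.298 CPM with bafilomycin A1. The highest reading of each rich group came from one of the libraries that stood apart. Its value for depletion under vehicle was 1.74 ± 0.81 (SE, edgeR adjusted p = 0.115), and without those libraries it was 3.00 with an edgeR adjusted p of 0.00165.

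Among the other antiviral effectors, ISG20, an RNA exonuclease, rose with bafilomycin A1 in both media. ISG20 read 1.12, 1.06 and 1.55 CPM in rich vehicle and 3.46, 2.91 and 3.32 CPM in rich bafilomycin. It read 2.24, 2.18 and 2.62 CPM in depleted vehicle and 4.23, 4.66 and 4.59 CPM in depleted bafilomycin, and no groups overlapped. The log2 fold changes were 1.37 ± 0.28 (SE) in rich medium (edgeR adjusted p = 0.00624) and 0.94 ± 0.26 in depleted medium (edgeR adjusted p = 0.0313). The second call ended on leaving out any 1 of 7 libraries, each depleted library among them. Depletion under vehicle raised it by 0.90 ± 0.28 (edgeR adjusted p = 0.0213), which ended without depleted vehicle replicate 1 or 3 or rich vehicle replicate 2.

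BST2, or tetherin, which holds budding virions at the cell surface, fell in all 4 pairwise comparisons. Its values were 26.3, 27.3 and 25.9 CPM in rich vehicle and 14.7, 18.6 and 11.4 CPM in rich bafilomycin. In depleted medium BST2 read 10.8, 15.4 and 10.7 CPM with vehicle and 8.43, 7.12 and 7.33 CPM with bafilomycin A1. Rich vehicle stood above and depleted bafilomycin below all other libraries. Bafilomycin A1 gave -0.83 ± 0.20 (SE) in rich medium (edgeR adjusted p = 0.018) and -0.69 ± 0.21 in depleted medium (edgeR adjusted p = 0.0414), with an interaction of 0.14 ± 0.29 (edgeR adjusted p = 0.827).

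Depletion lowered BST2 by more than the error in both treatments, with -1.11 ± 0.20 (SE) under vehicle (edgeR adjusted p = 0.000971) and -0.97 ± 0.21 under bafilomycin A1 (edgeR adjusted p = 0.0034). Neither of these ended on leaving out any 1 library. The bafilomycin call in rich medium ended without rich bafilomycin replicate 1 or 3, and without both libraries that stood apart (edgeR adjusted p = 0.0905). That in depleted medium ended on leaving out any 1 of 7 libraries.

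SAMHD1, which lowers the dNTP pool that viruses need, read 133, 113 and 99.2 CPM in rich vehicle and 91.5, 80.1 and 63.3 CPM in rich bafilomycin. It read 76.4, 70.1 and 70.8 CPM in depleted vehicle and 88.6, 96.4 and 96.3 CPM in depleted bafilomycin. Bafilomycin A1 thus went with lower values in rich medium and higher ones in depleted medium, with no overlap in either. The log2 fold changes were -0.56 ± 0.16 (SE, edgeR adjusted p = 0.0339) and 0.37 ± 0.16 (edgeR adjusted p = 0.142). The first call ended on leaving out any 1 of 5 libraries, at edgeR adjusted p-values up to 0.143, and without both libraries that stood apart (edgeR adjusted p = 0.219). The interaction was 0.93 ± 0.22 (edgeR adjusted p = 0.0253), the only one of the members called upward. It ended on leaving out any 1 of 7 libraries, at edgeR adjusted p-values up to 0.0669. Depletion under vehicle lowered SAMHD1 by more than its error (-0.67 ± 0.16, edgeR adjusted p = 0.00485), and no single library ended that call. TLDC2, which overlaps SAMHD1 on the opposite strand, did not exceed 0.305 CPM in any library.

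SAMD9, TRIM21 and TRIM22 were not called. TRIM21, an antibody receptor inside the cell, had 6.56 to 13.4 CPM, SAMD9 0.367 to 2.32 CPM, and TRIM22 at most 0.717 CPM. Among the IFI genes, whose roles are less defined, IFI6 read 2.53, 7.32 and 16.0 CPM in rich vehicle and 7.27, 7.60 and 13.4 CPM in rich bafilomycin. It read 3.90, 6.03 and 11.4 CPM in depleted vehicle and 2.41, 2.32 and 4.29 CPM in depleted bafilomycin. Replicate 3 was the highest in every group. Depletion under bafilomycin A1 lowered IFI6 (-1.66 ± 0.54, SE, edgeR adjusted p = 0.0378), which ended on leaving out any 1 of 6 libraries. IFI35 was not called, with 1.12, 2.39 and 4.06 CPM in rich vehicle, 3.51, 4.47 and 3.74 CPM in rich bafilomycin, 3.92, 3.88 and 5.11 CPM in depleted vehicle, and 3.09, 2.86 and 1.91 CPM in depleted bafilomycin.

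**Figure D4:**
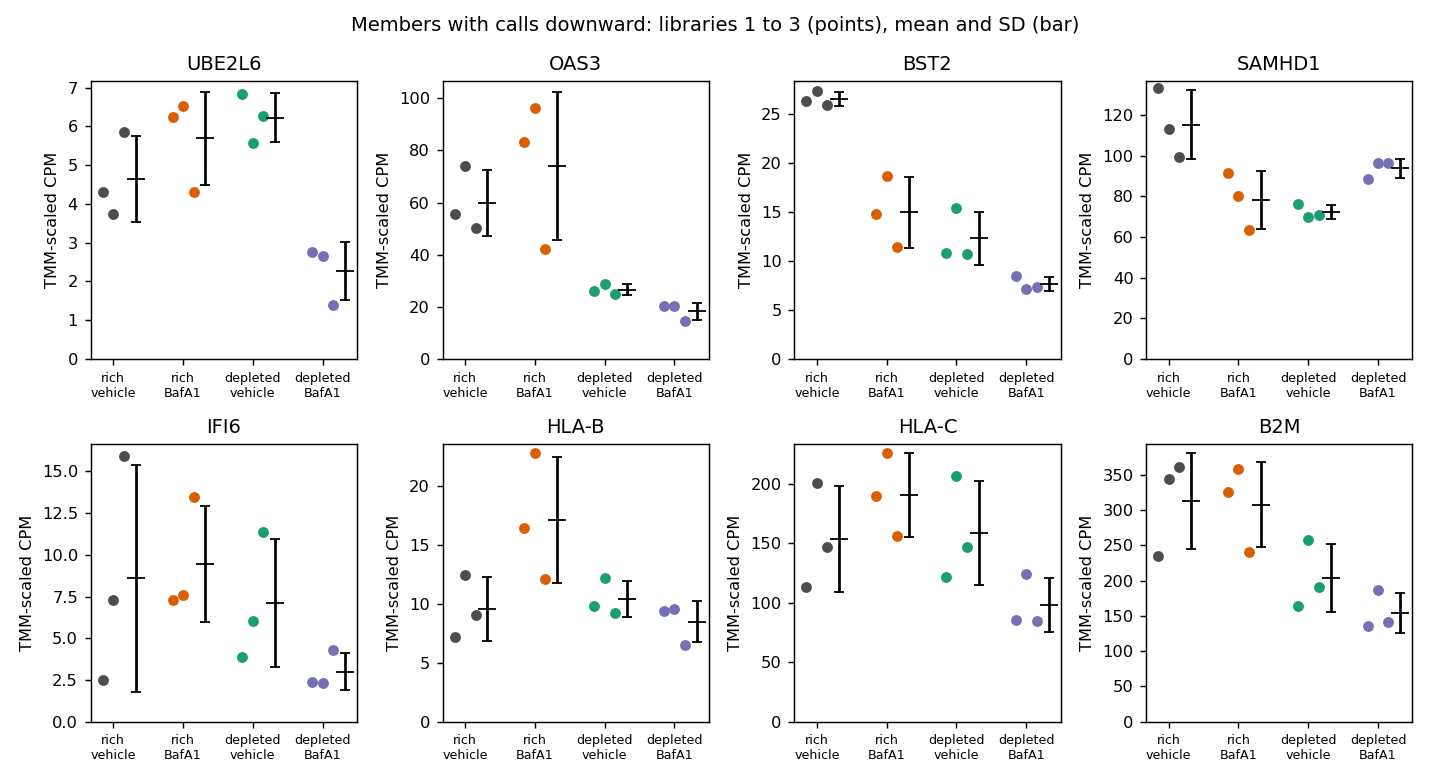
TMM-scaled CPM (y axis, from 0) of 8 members with calls downward, for libraries 1 to 3 of each group (points, x axis) with the mean and SD (bar). UBE2L6 was at or below 2.76 CPM in depleted bafilomycin only, OAS3 was low in both depleted groups, and BST2 was highest in rich vehicle.

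Of the antigen processing and class I genes, the heavy chain genes HLA-B and HLA-C and the light chain gene B2M fell on depletion under bafilomycin A1. HLA-E, a non-classical heavy chain read by natural killer cell receptors, did not. HLA-C read 113, 201 and 147 CPM in rich vehicle and 190, 226 and 156 CPM in rich bafilomycin. In depleted medium it read 122, 207 and 147 CPM with vehicle and 85.5, 124 and 84.3 CPM with bafilomycin A1. Depleted bafilomycin lay below rich bafilomycin without overlap, while both vehicle groups spanned nearly the same range. The log2 fold change for depletion under bafilomycin A1 was -0.96 ± 0.24 (SE, edgeR adjusted p = 0.0099), and it ended without rich bafilomycin replicate 2 (edgeR adjusted p = 0.0573).

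HLA-B read 12.1 to 22.8 CPM in rich bafilomycin and 6.53 to 9.58 CPM in depleted bafilomycin. It read 7.14 to 12.5 CPM in rich vehicle and 9.26 to 12.2 CPM in depleted vehicle. Its change under bafilomycin A1 was -1.01 ± 0.26 (SE, edgeR adjusted p = 0.0115), a call that ended without depleted bafilomycin replicate 3 or rich bafilomycin replicate 2. The value for bafilomycin A1 in rich medium, 0.83 ± 0.26, had an edgeR adjusted p of 0.0557. HLA-B and HLA-C are polymorphic near-copies of each other, and estimated counts can split their reads unevenly, so their values are uncertain as single genes.

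B2M read 235, 343 and 361 CPM in rich vehicle and 325, 358 and 241 CPM in rich bafilomycin. It read 164, 257 and 192 CPM in depleted vehicle and 135, 187 and 141 CPM in depleted bafilomycin. Bafilomycin A1 made no detectable difference in rich medium (-0.02 ± 0.22, SE, edgeR adjusted p = 0.96). Depletion lowered B2M under bafilomycin A1 by more than its error (-0.99 ± 0.22, edgeR adjusted p = 0.00499), and no single library ended the call. Under vehicle the value was -0.62 ± 0.22 (edgeR adjusted p = 0.0458), and this call ended on leaving out any 1 of 8 libraries.

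HLA-E read 39.4, 75.2 and 59.7 CPM in rich vehicle and 85.8, 87.9 and 93.1 CPM in rich bafilomycin. It read 93.0, 101 and 94.8 CPM in depleted vehicle and 92.1, 111 and 94.0 CPM in depleted bafilomycin. Rich vehicle was the low group in CPM, and it did not overlap with any other. In TPM it did, with 48.3 TPM in rich vehicle replicate 2 beside 39.5 to 42.7 TPM in rich bafilomycin. Depletion under vehicle raised HLA-E by 0.72 ± 0.19 (SE) on the log2 scale (edgeR adjusted p = 0.00857). Its rise with bafilomycin A1 in rich medium (0.61 ± 0.19, edgeR adjusted p = 0.0474) ended on leaving out any 1 library except rich vehicle replicate 2.

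The immunoproteasome subunit genes PSMB8 and PSMB9 and the peptide transporter gene TAP1 were not called in any comparison. PSMB8 had 0.716 to 2.55 CPM, PSMB9 at most 0.786 CPM and TAP1 3.65 to 11.5 CPM over the libraries. The antisense gene PSMB8-AS1, which overlaps all of these, did not exceed 0.182 CPM. PSMB8 gave 1.10 ± 0.38 (SE) for bafilomycin A1 in rich medium, with an edgeR adjusted p of 0.0795.

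**Figure D5:**
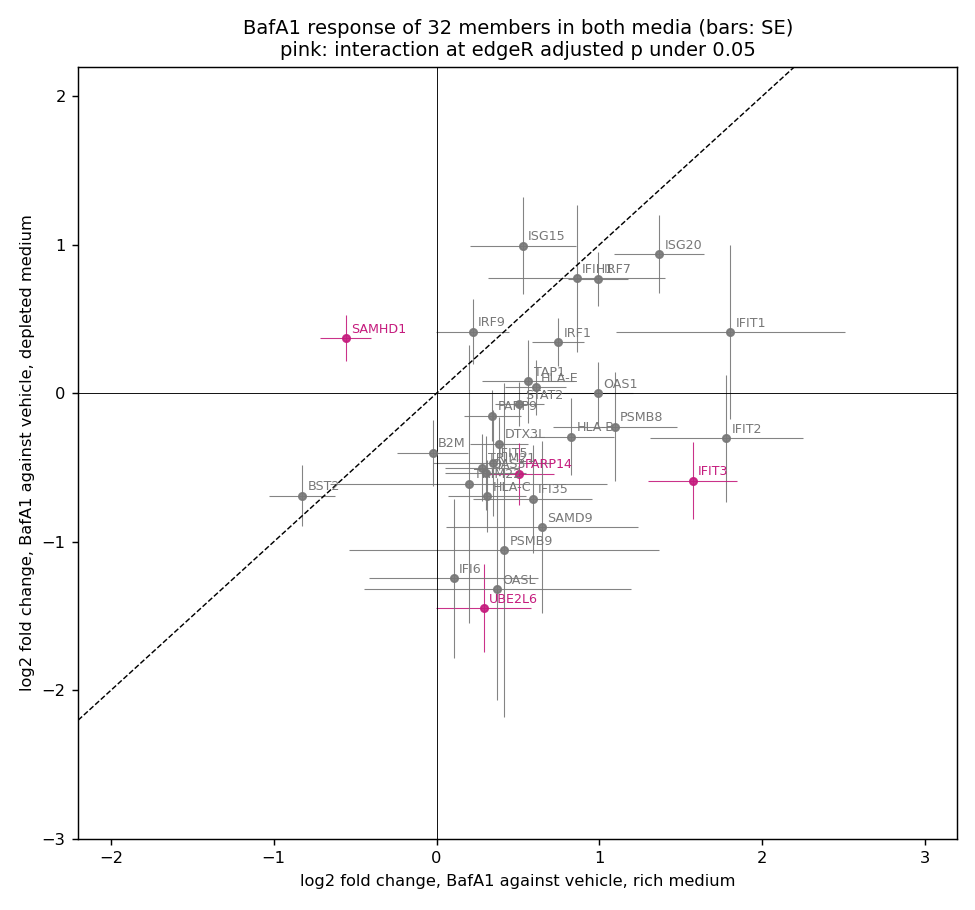
Log2 fold change for bafilomycin A1 against vehicle in rich medium (x axis) and in depleted medium (y axis) of the 32 tested members, with SE bars and a dashed line where both are equal. Below the line lie 28 of 32 points, as do 53.4% of all genes tested, and the 4 members with a called interaction are pink: IFIT3 (1.57 and -0.59), UBE2L6 (0.29 and -1.45), PARP14 (0.51 and -0.54) and SAMHD1 (-0.56 and 0.37).

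Of 16 receptor and JAK-STAT genes, all tested, 1 was called higher and 1 lower with bafilomycin A1 in rich medium, and 1 higher and 3 lower on depletion under bafilomycin A1. For all genes the shares were 6.15% and 4.78% in the first comparison and 10.5% and 13.6% in the second. IRF2, a factor that competes with IRF1 for DNA, read 7.14, 9.63 and 9.01 CPM in rich vehicle and 24.1, 20.6 and 23.1 CPM in depleted vehicle. Its log2 fold change on depletion was 1.38 ± 0.19 (SE) under vehicle (edgeR adjusted p = 0.00012), and bafilomycin A1 in rich medium gave 0.87 ± 0.19 (edgeR adjusted p = 0.00977). The second call ended without both libraries that stood apart (edgeR adjusted p = 0.0722) and with the 6 libraries compared alone (edgeR adjusted p = 0.0803). SOCS3, a feedback inhibitor of the kinases, gave -1.27 ± 0.23 on depletion under bafilomycin A1 (edgeR adjusted p = 0.00144). JAK2, the kinase at the interferon gamma receptor, gave 0.96 ± 0.28 for bafilomycin A1 in depleted medium (edgeR adjusted p = 0.0383), a call that ended on leaving out any 1 of 7 libraries (edgeR adjusted p up to 0.134) and with no filter (edgeR adjusted p = 0.0688).

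Of 13 nucleic acid sensing genes, 9 were tested. On depletion under vehicle 1 was called higher and 2 lower, when 15.5% and 15.4% of all genes tested were. CGAS, the cytosolic DNA sensor, read 68.8, 55.1 and 55.6 CPM in rich vehicle and 19.0, 25.5 and 21.5 CPM in depleted vehicle, a log2 fold change of -1.44 ± 0.19 (SE, edgeR adjusted p = 9.91e-05). IRF3, a factor activated behind these sensors, gave -0.54 ± 0.17 (edgeR adjusted p = 0.0245) and MAVS, the mitochondrial adaptor of RNA sensing, 0.61 ± 0.15 (edgeR adjusted p = 0.00668) in the same comparison. The call of IRF3 ended without rich vehicle replicate 3 or depleted vehicle replicate 1 or 2 (edgeR adjusted p up to 0.113). None of the 9 was called with bafilomycin A1 in either medium, where 3 in rich and 0 in depleted medium had an unadjusted p under 0.05. The shares of all genes called higher and lower were 6.15% and 4.78% in rich and 5.5% and 5.91% in depleted medium.

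Of 36 other interferon-stimulated genes, 26 were tested. In this list 4 were called higher and 2 lower on depletion under vehicle, and 2 higher and 6 lower on depletion under bafilomycin A1. For all genes the shares were 15.5% and 15.4% in the first comparison and 10.5% and 13.6% in the second. LAMP3, a lysosomal membrane protein gene that is also a target of the unfolded protein response, read 2.08, 3.21 and 2.33 CPM in rich vehicle and 55.0, 91.9 and 65.4 CPM in depleted vehicle (log2 fold change 4.77 ± 0.71, SE, edgeR adjusted p = 0.000751). In rich bafilomycin LAMP3 read 9.09, 6.43 and 42.8 CPM, with replicate 3 apart. WARS1, a tRNA synthetase gene that also responds to amino acid shortage, rose by 1.00 ± 0.16 on depletion under vehicle (edgeR adjusted p = 0.000312). EPSTI1 read 30.7, 24.0 and 24.4 CPM in depleted vehicle and 11.8, 9.77 and 8.97 CPM in depleted bafilomycin, a log2 fold change of -1.37 ± 0.17 (edgeR adjusted p = 0.000306).

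Of 16 other class I genes, 15 were tested. On depletion under bafilomycin A1, 6 fell and none rose, when 13.6% of all genes tested were called lower and 10.5% higher. ERAP2, which trims peptides in the endoplasmic reticulum, gave -2.44 ± 0.40 (SE, edgeR adjusted p = 0.000687), and TAP2, the partner of TAP1, -1.20 ± 0.22 (edgeR adjusted p = 0.0012). The 3 constitutive proteasome subunits that PSMB8 and PSMB9 and a further subunit replace, PSMB5, PSMB6 and PSMB7, were called lower on depletion under vehicle, by log2 fold changes from -0.59 to -0.97. The share of all genes called lower there was 15.4%. The call of PSMB5 ended on leaving out rich vehicle replicate 1 or 3 or depleted vehicle replicate 1 or 2, and without rich vehicle replicate 3 its value was -0.35 (edgeR adjusted p = 0.176). Among 10 class II genes 3 were tested, and the invariant chain gene CD74 gave -0.94 ± 0.21 on depletion under bafilomycin A1 (edgeR adjusted p = 0.00528).

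Of 15 targets of NF-kB, a factor that acts beside IRFs on inflammatory genes, 13 were tested. On depletion under vehicle 2 were called lower and none higher, when 15.4% of all genes tested were called lower and 15.5% higher. The lower calls thus lay at the background. They were the ubiquitin ligase gene BIRC3 (-1.29 ± 0.30, SE, edgeR adjusted p = 0.0041) and TNFAIP3, an inhibitor of NF-kB (-0.998 ± 0.20, edgeR adjusted p = 0.00153). RELB, an NF-kB subunit gene, rose with bafilomycin A1 in rich medium (0.87 ± 0.26, edgeR adjusted p = 0.047), a call that ended on leaving out any 1 of 9 libraries (edgeR adjusted p up to 0.168).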

How the data were processed

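RNA was sequenced as ribosomal RNA-depleted, stranded total RNA libraries from 12 Caco-2 samples in 4 groups of 3. Per the file headers, each deposited table gives per gene an estimated count and a TPM value; the authors' series-wide table holds whole-number counts of 13518 genes and was used as an alternative. The submitters' processing notes name DRAGEN and GRCh38; no source used here gives the annotation or strand setting. Estimated counts were rounded, filtered (filterByExpr, minimum count 10, minimum total 15, 18047 genes), scaled by TMM and tested with edgeR 4.0.16 in R 4.3.3 (quasi-likelihood, robust, 1 mean per group, 8 residual degrees of freedom, Benjamini-Hochberg over all genes tested, call under 0.05), checked on simulated counts. Values in CPM are TMM-scaled, and overlap between groups is stated in CPM. In TPM some of the groups described as separate overlap, among them groups of STAT2, HLA-E, ISG20, BST2 and SAMHD1. DESeq2 1.42.0, other scaling, no filter, a replicate block, fewer libraries and leaving out each library were alternatives.

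Members and gene lists were chosen with earlier results of these data known. Up to 3 called members per role with a mean of at least 1 CPM are given per library, with all of roles with 3 or fewer tested, and up to 3 called genes of each other list, some of which are not reported here; IFIH1, IFIT1 and HLA-B are given by range. Libraries with the same replicate number deviated together between rich and depleted vehicle (correlations across genes of 0.156, 0.401 and 0.454). They also did between depleted vehicle and depleted bafilomycin (0.161, 0.388 and 0.389). They did not between rich vehicle and rich bafilomycin (0.111, 0.00272 and 0.0696) or between rich and depleted bafilomycin (-0.127, -0.0503 and 0.0543). The main fit held no replicate block in any comparison, so its p-values ignore this pairing. The block was run as an alternative only. Overlaps between genes come from GENCODE 29, and start sites and promoters from RefSeq GRCh38.p14.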

Additional observations from a re-analysis of the deposited data

Results flagged for a closer look

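Of the members, 4 had a bafilomycin A1 response that differed between the media by the interaction test (edgeR, adjusted over all genes tested). By the same test 2.35% of all genes were called higher and 3.83% lower. The log2 difference, depleted minus rich medium, was -2.16 ± 0.38 (SE) for IFIT3 (edgeR adjusted p = 0.00617) and -1.74 ± 0.41 for UBE2L6 (edgeR adjusted p = 0.0255). PARP14 gave -1.05 ± 0.30 (edgeR adjusted p = 0.0494) and SAMHD1 0.93 ± 0.22 (edgeR adjusted p = 0.0253). No single library ended the call of IFIT3. That of PARP14 ended on leaving out any 1 of 11 libraries, that of SAMHD1 any 1 of 7 and that of UBE2L6 any 1 of 6. PARP14 also lost it with DESeq2 size factors, and SAMHD1 without both libraries that stood apart.

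Of the other pathway genes named, 3 met the same test. The log2 difference was -1.48 ± 0.24 (SE) for EPSTI1 (edgeR adjusted p = 0.00495), -1.11 ± 0.26 for IRF2 (edgeR adjusted p = 0.0251) and -0.77 ± 0.21 for MAVS (edgeR adjusted p = 0.045). The call of MAVS ended on leaving out any 1 of 11 libraries (edgeR adjusted p up to 0.135), without both libraries that stood apart (edgeR adjusted p = 0.0914), with no filter (edgeR adjusted p = 0.102) and with DESeq2 size factors (edgeR adjusted p = 0.0548). That of IRF2 ended on leaving out any 1 of 5 libraries (edgeR adjusted p up to 0.0773) and without both that stood apart (edgeR adjusted p = 0.0609).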

How the results depend on the processing

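No named member changed direction past the threshold under any alternative run. The values of single members against 7 other settings and 12 omissions were on the same side of the threshold in 2732 cases, lost the call in 159 and gained it in 85. Most values were not called in the main fit and so could not lose a call. The 159 losses thus belong to the smaller part that was called, and the 2732 do not measure how stable the calls were. Counts of members called that moved by over 1.5 times follow, with the share of all genes called in the same direction and setting. With the 6 libraries compared alone, 2 members were higher (1.75%) and 0 lower (1.21%) for bafilomycin A1 in rich medium, 4 higher (12.1%) and 7 lower (12.8%) in depleted medium, and 6 higher (10.8%) on depletion under vehicle. Without the pair of libraries that stood apart, bafilomycin A1 in rich medium lowered 0 (1.93%), in depleted medium it raised 4 (9.36%) and lowered 6 (9.22%), and the interaction was higher for 0 (1.55%) and lower for 6 (2.73%). With no filter, bafilomycin A1 in depleted medium lowered 5 (4.87%), depletion under bafilomycin A1 raised 1 (5.6%), and the interaction was lower for 8 (3.87%). With the replicate block, bafilomycin A1 in depleted medium lowered 6 (8.77%), and the interaction was lower for 11 (6.8%). DESeq2 gave 6 lower for the interaction (6.63%). The series-wide table gave 1 higher on depletion under bafilomycin A1 (13.6%) and 5 lower for the interaction (5.51%). Under the block the other counts moved less: 10 higher (8.72%) and 2 lower (6.98%) in rich medium and 3 higher (7.93%) in depleted medium. They were 12 (18.5%) and 4 (17.5%) on depletion under vehicle and 2 (12.9%) and 10 (16.5%) on depletion under bafilomycin A1. The interaction was higher for 1 (4.11%). Leaving out 1 library gave 5 to 8 higher (3.51% to 7.63%) and 0 to 2 lower (1.91% to 6.67%) for bafilomycin A1 in rich medium. In depleted medium it gave 0 to 3 (2.09% to 8.32%) and 1 to 3 (2.51% to 8.17%). Depletion gave 6 to 12 (10.3% to 16.7%) and 3 to 4 (9.89% to 16%) under vehicle. Under bafilomycin A1 it gave 0 to 2 (4.79% to 13.7%) and 5 to 10 (7.82% to 15.8%). The interaction gave 0 to 1 (0.68% to 4.12%) and 1 to 6 (1.39% to 5.8%). The fit of 6 libraries has fewer samples; otherwise the cause was not tested. Members under about 1 CPM, such as IFIT1, IFIH1, OASL and PSMB9, rest on few reads in rich vehicle replicate 1, where 1 read equals 0.0744 CPM.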
